A study of Mus musculus with 21 samples.

Results

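Control lungs taken 12 h after aspiration differed by replicate number in 95 of 12393 genes, among them Fosl1, Slc7a11, Srxn1, Scgb3a2 and Upk3b. The arrays described here are the 8 of 21 that came from mice given bovine serum albumin (BSA, n = 4) or the vehicle alone, Hank's balanced salt solution (HBSS, n = 4), and replicates 1 and 2 of both agents (4 arrays) are set against replicates 3 and 4 (4 arrays). The split was chosen by the measured expression levels of these same 8 arrays, in which Fosl1, Prss22 and Cldn4 differ. The differences across it are therefore a description with no test, and tests are given only for comparisons that did not use it. All mice were 8-week-old female BALB/c, the whole left lung was homogenised, and each mouse had 1 intratracheal aspiration of 50 µl that held 20 µg of BSA, 20 µg of MACA (a crude antigen of the fungus Metarhizium anisopliae) or HBSS alone. The other 13 arrays come from lungs taken 3 h after MACA (n = 4), after BSA (n = 3) or after HBSS (n = 3), and 12 h after MACA (n = 3). Arrays are labelled as biological replicates without an animal, cage or day, so what replicates 1 and 2 share is not given, and p-values measure only the spread between these samples.

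The lining of the lung reacts to fluid, protein or injury with a fast programme that is well known from wounded epithelium. Fos family factors such as Fosl1 pair with Jun proteins to form AP-1, which acts in spreading and differentiating epithelial cells. Other genes known from stressed epithelium are the serine protease Prss22, the barrier claudin Cldn4, the 14-3-3 protein Sfn and the envelope protein Sprr1a. Atf4 and Nrf2 are further stress factors: the first raises amino acid uptake and serine synthesis, the second raises glutathione and peroxide defence. Club cells of the airway carry other genes, such as the secretoglobin Scgb3a2 and the cytochrome Cyp2f2, which are known to decline in injured airways.

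Promoters of 4 members that stood higher in replicates 1 and 2 are shown for the letters these factors are known to bind. The sequences are the 250 bases before the transcription start from RefSeq (build GRCm38.p6), read 5′ to 3′ on the gene's strand, with each match in capitals, and were chosen after the values were seen because each holds 2 matches. Cldn4 lies at chr5:134946935-134947184 (minus strand), Sprr1a at chr3:92485882-92486131 (minus), Srxn1 at chr2:152105274-152105523 (plus) and Slc7a11 at chr3:50443614-50443863 (minus). In the first 3 the capitals mark TGANTCA, an AP-1 site, and in Slc7a11 they mark TGATGNAA, an amino acid response element, found once on each strand.
Cldn4: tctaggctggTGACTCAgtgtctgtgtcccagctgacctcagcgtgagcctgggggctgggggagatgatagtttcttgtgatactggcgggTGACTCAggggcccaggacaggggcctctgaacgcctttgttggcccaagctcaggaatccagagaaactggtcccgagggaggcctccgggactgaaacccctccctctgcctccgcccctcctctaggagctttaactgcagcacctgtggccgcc
Sprr1a: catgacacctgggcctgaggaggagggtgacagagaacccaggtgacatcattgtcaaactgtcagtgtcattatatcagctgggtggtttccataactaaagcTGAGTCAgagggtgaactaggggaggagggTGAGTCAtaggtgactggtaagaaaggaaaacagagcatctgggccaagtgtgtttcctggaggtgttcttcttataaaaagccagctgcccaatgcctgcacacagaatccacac
Srxn1: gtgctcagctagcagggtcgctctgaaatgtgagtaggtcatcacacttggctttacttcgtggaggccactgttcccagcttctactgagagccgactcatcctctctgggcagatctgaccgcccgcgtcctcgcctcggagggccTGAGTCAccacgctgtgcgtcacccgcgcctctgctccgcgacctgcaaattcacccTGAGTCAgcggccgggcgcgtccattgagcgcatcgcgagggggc
Slc7a11: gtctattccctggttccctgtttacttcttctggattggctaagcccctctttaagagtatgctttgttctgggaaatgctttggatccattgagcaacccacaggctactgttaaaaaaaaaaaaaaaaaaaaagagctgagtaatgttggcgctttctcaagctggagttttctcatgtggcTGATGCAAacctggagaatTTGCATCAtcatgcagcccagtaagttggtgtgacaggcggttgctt

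The AP-1 matches start 240 and 158 bases before the start of Cldn4, 146 and 116 before that of Sprr1a, and 102 and 45 before that of Srxn1. The matches in Slc7a11 start 66 and 47 bases before its start. Both strands were searched. TGANTCA occurred in 6.75% of all 32851 promoters in the table and TGATGNAA in 3.45%. The antioxidant response core TGACNNNGC, which can overlap TGANTCA, occurred in 10.2% of promoters and had 0 matches in that of Srxn1. The match 45 bases before the start of Srxn1 reads TGAGTCAgc, with G where this core has C. Wider forms of the core were not searched. Only 40 of the 53 genes higher and 31 of the 42 genes lower in replicates 1 and 2 were matched to a promoter, too few for a comparison of the groups of genes. As a tally only, 10 of the 46 promoters of those 40 genes held TGANTCA and 3 held TGATGNAA, so the promoters shown are not typical of the rest. The antioxidant response core was in 5 of the 46 (10.9%), near its share of all promoters. Of the 36 promoters of the 31 lower genes, 1 held TGANTCA, 0 held TGATGNAA and 3 held the antioxidant response core. These matches are letters in a window and do not show binding.

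The 8 arrays themselves differed in technical measures, which are given before the results that rest on them. The median deposited intensity was 97.2 to 288 (93.5 to 186 on the other 13 arrays). The ratio of 2 probe sets of a spiked hybridization control was 1.13 to 1.22 on all 4 HBSS 12 h arrays. It was 1.62 and 1.66 on BSA 12 h replicates 1 and 2, but 0.939 and 1.06 on BSA 12 h replicates 3 and 4. The BSA pairs therefore differ in this ratio and the HBSS pairs do not, so HBSS is also given alone. BSA 12 h replicate 1 lay apart on the first principal component (8.57, against -16 to -11.3 for the other 3 BSA arrays, with MACA arrays at 19 to 29). BSA 12 h replicate 4 had a Gapdh 3′ to 5′ signal ratio of 1.49, against 0.913 to 1.1 on the other 20 arrays. The lung was recognisable on every array, with log2 levels of 13.64 ± 0.15 (SD, n = 4) for surfactant protein gene Sftpc in replicates 1 and 2 and 13.66 ± 0.12 in replicates 3 and 4. Of 16 measured markers of thymus, thyroid and tracheal cartilage, 15 were under the noise level on all 8 arrays.

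Levels are log2(intensity + 16) after quantile normalization, where 4.00 is the floor and 5.83 the noise level. A gene was counted as differing when its mean difference was at least 2-fold (1 on the log2 scale), its higher side was above the noise level, and both arrays of a pair lay above both arrays of the other pair within BSA and again within HBSS. By that rule 53 of 12393 genes (0.428%) were higher and 42 (0.339%) lower in replicates 1 and 2. Among HBSS arrays alone, 47 genes (0.379%) were higher and 53 (0.428%) lower, and among BSA arrays alone 135 (1.09%) were higher and 97 (0.783%) lower. Of the 53 higher genes, 36 also met the rule in HBSS alone and 49 in BSA alone. Of the 42 lower genes, 31 did so in HBSS alone and 38 in BSA alone. In whole lung, fewer cells of a type and less RNA per cell cannot be told apart.

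Without BSA 12 h replicate 1 the joint count was 96 in place of 95, and 105 at most without any other of the 8 arrays. The count among BSA arrays alone was 423 in place of 232 without BSA 12 h replicate 4. A side with fewer arrays is more easily apart, so these counts tend to rise by construction and do not measure how firm the split is. With no scaling between arrays the joint split was 139 higher and 23 lower (85.8% higher, against 55.8%), with the median of all genes moved by 0.29 on the log2 scale, and 51 of the 53 and 23 of the 42 genes still met the rule. The median difference of all genes was -0.01 with scaling. The members just inside the threshold were Wnt7b (1.00) and Gfpt1 (1.01) among the higher and Slc16a11 (-1.01) and Msl2 (-1.02) among the lower. Just outside lay Angptl4 (0.99), Gclm (0.97), Mgst2 (-0.98) and Krtap5-1 (-0.97). Each gene is given by its brightest probe set. Another probe set existed for 35 of the 95 genes and had the other sign for 11 of them, among them Afp and Clca1, but only those of Msl2 (0.40 and 0.17) were above the noise level on all 8 arrays.

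Fosl1, Prss22 and Cldn4, the genes named with the split, were clearly separated in both agents. Fosl1, the Fos family factor, stood at log2 6.31 and 6.34 in HBSS replicates 1 and 2 and at 6.77 and 6.83 in BSA replicates 1 and 2. In replicates 3 and 4 it stood at 4.00 and 4.38 in HBSS and at 4.00 and 4.95 in BSA, all under the noise level. The log2 difference was 2.23 ± 0.23 (SE) over both agents, at least 1.66-fold when the low side is set at the noise level, and 2.14 ± 0.19 in HBSS alone.

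Prss22, a tryptase-like protease of airway epithelium, had the levels 8.04 and 7.64 (HBSS) and 8.21 and 8.31 (BSA) in replicates 1 and 2. Its levels in replicates 3 and 4 were 5.08 and 5.39 (HBSS) and 5.59 and 5.20 (BSA). The difference was 2.73 ± 0.15 (SE), at least 4.66-fold, with no overlap between the pairs. Cldn4, which tightens epithelial junctions, stood at 8.27 and 8.04 (HBSS) and 8.52 and 8.44 (BSA) against 6.02 and 6.07 (HBSS) and 6.50 and 5.76 (BSA). Its difference was 2.23 ± 0.18 (SE), again with no overlap.

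**Figure D1:**
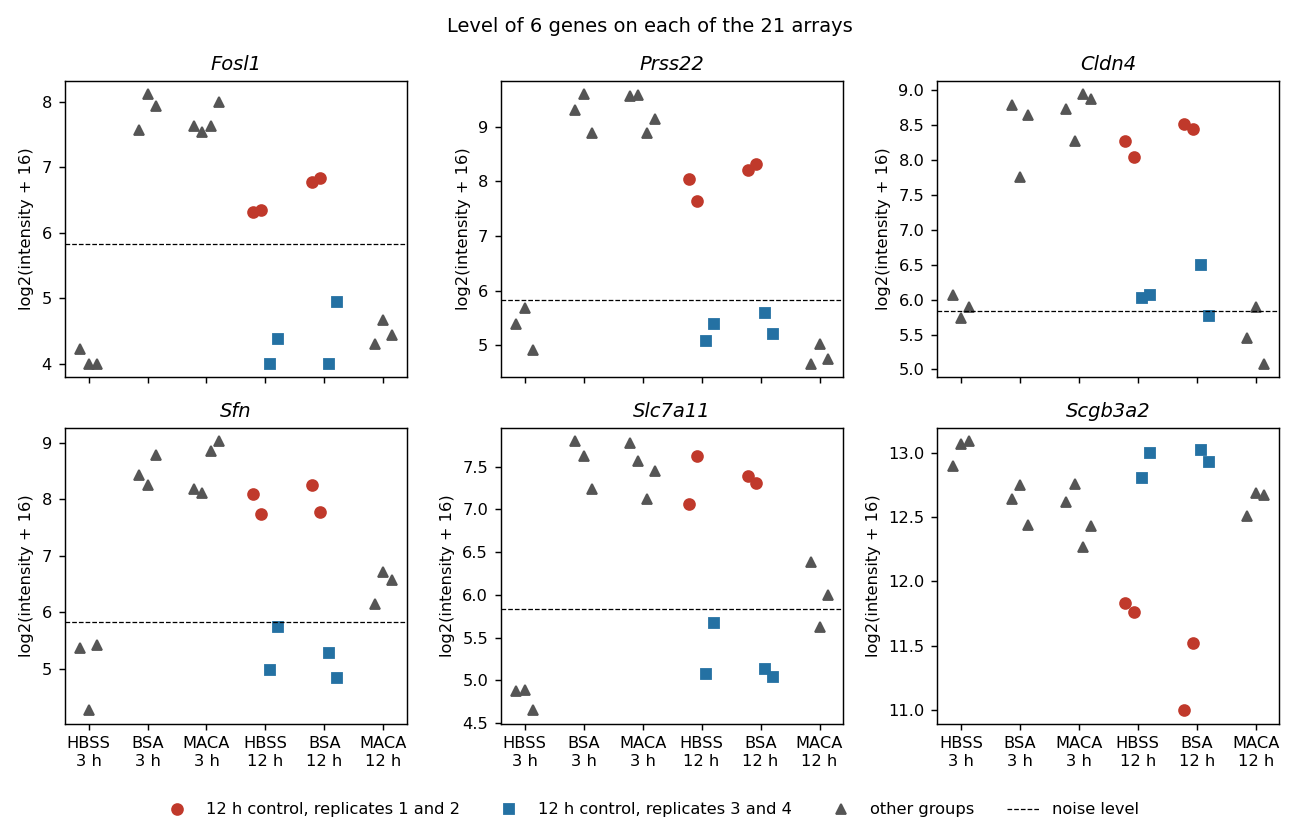
Log2 level of 6 genes (vertical axis, log2 of intensity + 16) on each of the 21 arrays, by group; red circles are 12 h control replicates 1 and 2, blue squares replicates 3 and 4, grey triangles the other groups, and the dashed line is the noise level where it falls in the range. Fosl1, Prss22, Cldn4, Sfn and Slc7a11 are higher in replicates 1 and 2, and Scgb3a2 is lower, with no overlap within either agent.

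Few other genes of the epithelial repair and stress list met the rule. Of 28 measured members, 5 were higher in replicates 1 and 2, 0 were lower, and the list median was 0.13. Of the 5, Fosl1, Prss22 and Cldn4 came with the choice of the split, which leaves Sfn and Sprr1a. Sfn, a cell cycle brake of stratified epithelium, stood at 8.10, 7.74, 8.25 and 7.78 in HBSS 1, HBSS 2, BSA 1 and BSA 2. It was at 4.98, 5.73, 5.28 and 4.84 in HBSS 3, HBSS 4, BSA 3 and BSA 4, at least 4.40-fold lower. Sprr1a, a cornified envelope protein, was at 7.45, 7.40, 8.21 and 8.01 against 5.19, 5.06, 5.23 and 5.72 in the same order, at least 3.83-fold apart. Both genes separated the pairs without overlap in each agent. The abundant annexin genes of the list, Anxa1 (0.11 ± 0.04 SE) and Anxa3 (0.06 ± 0.06 SE), did not meet the rule.

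Among AP-1 and Egr factors, 2 of 26 were higher (Fosl1 and Myc), and the list median was -0.07. Myc, a growth regulator, differed by 1.42 ± 0.09 (SE), from 7.33 to 8.13 in replicates 1 and 2 and from 6.05 to 6.60 in replicates 3 and 4. Dusp1 (0.11 ± 0.12 SE), a MAP kinase phosphatase, and Ier3 (-0.29 ± 0.07 SE), an immediate early gene, did not meet the rule. Members of the EGF receptor list (13 measured) and of the MAP kinase phosphatase and Sprouty list (12 measured) held 0 differing genes.

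Ccl20, a chemokine that draws dendritic cells and lymphocytes through Ccr6, differed by 2.93 ± 0.51 (SE). It stood at 7.97 and 8.01 in HBSS replicates 1 and 2 and at 8.45 and 7.70 in BSA replicates 1 and 2. In replicates 3 and 4 it stood at 5.28 and 6.49 in HBSS and at 4.65 and 4.00 in BSA, so the pairs did not overlap, but 3 of the 4 lower values were under the noise level and the size of the difference is uncertain. Ccl20 was the 1 CC chemokine of 15 that differed. None of 13 CXC chemokines, 15 NF-kB feedback genes, 20 interferon-stimulated genes or 11 SOCS and STAT feedback genes did. Their list medians were 0.01, 0.07, -0.07 and -0.02. Il1rn, the interleukin-1 receptor antagonist, differed by 1.06 ± 0.57 (SE), was 0.66 in HBSS alone, and was highest on BSA 12 h replicate 1 (8.96, against 6.72 to 6.96 on the other 3 arrays of replicates 1 and 2). Slfn4, a Schlafen gene of myeloid cells, was likewise highest there (10.13, against 7.74 to 8.61), and differed by 1.91 ± 0.66 (SE).

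Of 18 measured Atf4 and unfolded protein response genes, 5 were higher (Slc7a11, Phgdh, Trib3, Psat1 and Sdf2l1) and 0 were lower. Of the 18, 17 lay above 0, and the list median was 0.61, beside -0.01 over all genes. Slc7a11, the cystine importer, stood at 7.06 and 7.63 (HBSS) and 7.39 and 7.31 (BSA) against 5.08 and 5.67 (HBSS) and 5.13 and 5.04 (BSA), at least 2.86-fold higher. Its promoter, printed above, holds both amino acid response elements.

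Phgdh, the first enzyme of serine synthesis, was at 9.33, 9.28, 9.55 and 9.61 in replicates 1 and 2 against 7.65, 7.89, 7.17 and 7.66 (difference 1.85 ± 0.19 SE). Psat1, the next enzyme, differed by 1.62 ± 0.29 (SE), and Trib3, a pseudokinase that restrains Atf4, by 1.70 ± 0.19 (SE). Sdf2l1, an endoplasmic reticulum chaperone partner, differed by 1.15 ± 0.18 (SE). The abundant chaperone gene Hspa5 was higher by 0.62 ± 0.06 (SE), under the 2-fold rule, and Xbp1 did not separate (0.00 on average). Slc7a5, the large neutral amino acid transporter, stood outside the list and was at 7.59, 7.33, 8.30 and 8.34 against 5.34, 5.68, 5.52 and 6.04 (difference 2.25 ± 0.20 SE). Further genes of these routes, named here after their values were seen, were the mitochondrial folate enzymes Mthfd2 (1.77 ± 0.26 SE) and Shmt2 (1.05 ± 0.14, 0.81 in HBSS alone) and the stress protein Nupr1 (1.71 ± 0.19). The branched-chain aminotransferase gene Bcat1 was at least 1.16-fold and the arginine transporter gene Slc7a3 at least 2.02-fold higher, with the low side under the noise level. For Bcat1 the value rested on BSA replicates 1 and 2 (6.36 and 6.32), since all HBSS values were under the noise level.

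Of 15 measured metallothionein and Nrf2 target genes, 4 were higher (Slc7a11, Srxn1, Gsta2 and Gpx2) and 0 were lower. Slc7a11 is also counted in the Atf4 list. Of the 15, 13 lay above 0, and the list median was 0.76, beside -0.01 over all genes. Srxn1, which reactivates peroxiredoxins, stood at 10.03 and 10.08 (HBSS) and 9.88 and 9.81 (BSA) against 8.19 and 8.79 (HBSS) and 7.71 and 8.09 (BSA). Gsta2, a glutathione transferase, was at 9.88, 10.42, 9.50 and 9.89 against 8.48, 9.41, 7.50 and 7.86, with HBSS replicate 4 nearest to the high side. Gpx2, an epithelial glutathione peroxidase, differed by 1.40 ± 0.26 (SE). The metallothionein Mt1 (0.22 ± 0.31 SE) and the transferase Gstm1 (-0.28 ± 0.17 SE) did not meet the rule.

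Afp, the fetal serum protein related to albumin, was also among the highest. It stood at 9.22, 9.59, 9.17 and 9.41 in replicates 1 and 2 and at 7.31, 7.99, 5.07 and 6.50 in replicates 3 and 4, a difference of 2.63 ± 0.54 (SE). Its replicates 3 and 4 were lower in BSA than in HBSS. The remaining genes of the 12 largest were H2-T18 (1.93 ± 0.44 SE, at least 1.44-fold), a non-classical MHC class I gene, and Angptl6 (1.92 ± 0.13 SE, at least 1.19-fold), a secreted angiopoietin-like protein.

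Among circadian clock genes, 2 of 16 were higher, the repressors Nr1d1 (1.61 ± 0.50 SE) and Nr1d2 (1.07 ± 0.07 SE, 0.96 in HBSS alone). Nr1d1 stood at 5.93, 6.09, 6.94 and 6.19 in replicates 1 and 2 and at 4.00, 4.76, 5.97 and 4.00 in replicates 3 and 4, and BSA replicate 3 lay close below BSA replicate 2. Both repressors were far higher in every 3 h group, where Nr1d1 ranged from 9.11 to 9.74 and Nr1d2 from 10.37 to 11.67. The list median was 0.01. The time of day of sampling is not given in the sources used here, and its part was not tested. Of glucocorticoid-induced genes, 1 of 18 was higher, the kinase gene Pdk4 (1.04 ± 0.18 SE, 0.83 in HBSS alone), with a list median of 0.33. Of hypoxia genes, 1 of 12 was higher, the glucose transporter gene Slc2a1 (1.18 ± 0.28 SE, 0.57 in HBSS alone).

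**Figure D2:**
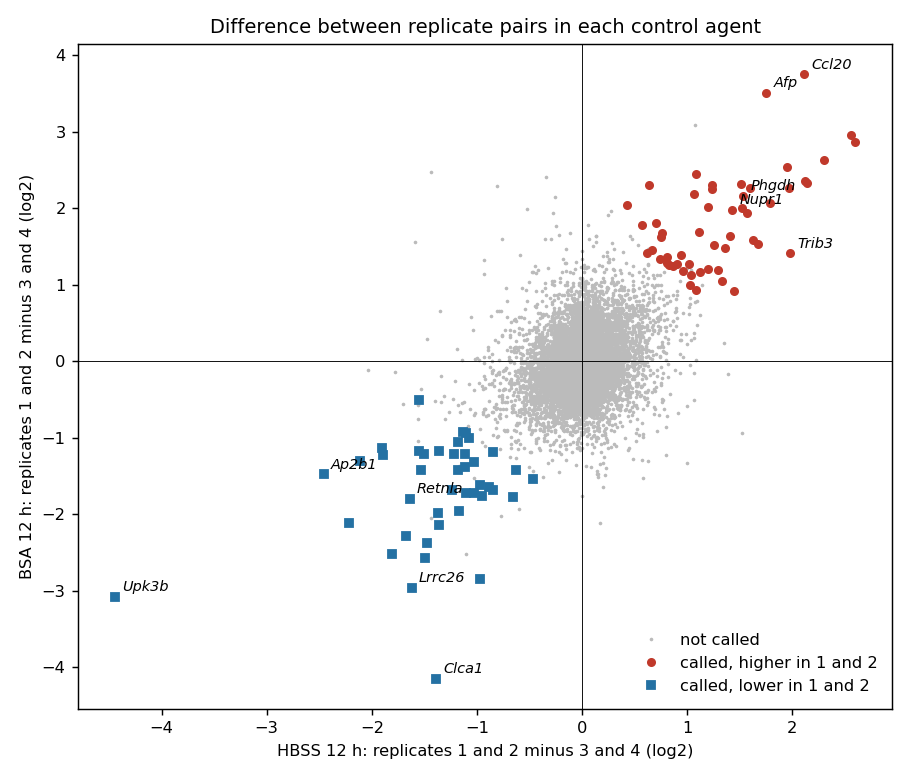
Difference of replicates 1 and 2 from 3 and 4 (log2) in HBSS 12 h (horizontal) and BSA 12 h (vertical) for 12393 genes; red circles are the 53 genes that met the rule as higher, blue squares the 42 as lower, grey points the rest. Ccl20 and Afp differed more in BSA than in HBSS, and Upk3b more in HBSS (-4.44) than in BSA (-3.08).

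The genes that were lower in replicates 1 and 2 included airway secretory genes. Of 18 measured airway secretory and club cell markers, 4 were lower (Scgb3a2, Cyp2f2, Muc5b and Gabrp), 0 were higher, and the list median was -0.36. Scgb3a2, a secretoglobin of the airway lining, stood at 11.83 and 11.76 in HBSS replicates 1 and 2 and at 11.52 in BSA replicate 2, and was lowest of all 21 arrays in BSA replicate 1. The 4 arrays of replicates 3 and 4 lay between 12.80 (HBSS replicate 3) and 13.02 (BSA replicate 3), all above the others, with a difference of -1.41 ± 0.19 (SE).

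Cyp2f2, a cytochrome P450 of club cells, was at 12.35, 12.56, 11.47 and 11.91 against 13.27, 13.42, 13.46 and 13.20 (difference -1.27 ± 0.21 SE). In HBSS alone it differed by -0.89, under the rule. Muc5b, the gel-forming mucin, differed by -1.27 ± 0.31 (SE) and by -0.85 in HBSS alone. Gabrp, a GABA receptor subunit of airway epithelium, differed by -1.27 ± 0.13 (SE), and by -0.50 at its other probe set above noise. Scgb1a1, the most abundant club cell product, stood at the top of the scale on every array (13.76 on all 4 HBSS arrays), where a difference could not be seen. Aldh1a1 differed by -0.35 ± 0.10 (SE). The summed intensity of the airway list was 28146 to 34812 in replicates 1 and 2 and 43567 to 55530 in replicates 3 and 4, without overlap. This sum includes the bright genes Scgb3a2 and Cyp2f2, which met the rule on the same arrays, so it is no separate result for the list. The basal cell genes Krt5, Krt14, Krt15 and Trp63 and the mucin Muc5ac were under the noise level on all 8 arrays.

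Further lower genes, some of them known from secreting or transporting epithelium, are named by the size of their difference. Clca1, a goblet cell product, stood at 4.13, 4.00, 5.03 and 4.00 in replicates 1 and 2 and at 5.67 (HBSS 3), 5.25 (HBSS 4), 7.48 (BSA 3) and 9.85 (BSA 4) in the others. It was at least 2.35-fold lower, a value that rested on BSA replicates 3 and 4, since both HBSS values were under the noise level. Lrrc26, a potassium channel subunit of secretory epithelium, was at 7.07, 6.96, 5.89 and 6.39 against 8.57, 8.70, 9.35 and 8.85 (difference -2.29 ± 0.34 SE). Cldn10, a claudin of ion-conducting junctions, differed by -2.03 ± 0.45 (SE), opposite in direction to Cldn4, and these were the 2 of 17 tight junction genes that differed. Slurp1 (-2.17 ± 0.28 SE, at least 1.56-fold), a secreted Ly6 family protein, Ces1f (-2.17 ± 0.30, at least 1.86-fold), a carboxylesterase, and Cyp4f15 (-1.98 ± 0.23, at least 2.00-fold), a fatty acid hydroxylase, were also lower. The other genes of the 12 lowest were Chad (-1.93 ± 0.28), a cartilage matrix protein, Ugt3a1 (-1.91 ± 0.43, -0.97 in HBSS alone), a glycosyltransferase, Asgr1 (-1.75 ± 0.30, at least 1.17-fold), a lectin receptor, and Retnla, described next.

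Of 18 measured acute phase and antimicrobial genes, 3 were lower and 0 higher, with a list median of -0.11. Retnla, a secreted product of alternatively activated macrophages and airway epithelium, stood at 10.20, 10.46, 12.05 and 9.51 against 12.45, 11.48, 12.63 and 12.54 (difference -1.72 ± 0.61 SE). BSA replicate 1 was the highest of its pair for this gene. Pigr, which carries IgA across epithelium, differed by -1.36 ± 0.14 (SE), and the haptoglobin gene Hp by -1.02 ± 0.15 (SE, -0.85 in HBSS alone). Neither Lrg1 (-0.08 ± 0.41 SE) nor Lcn2 (0.10 ± 0.55 SE), which are induced in inflammation, separated the pairs.

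Upk3b, a uroplakin known from the mesothelium that covers the lung, stood at 5.01 and 4.00 (HBSS) and 5.32 and 6.46 (BSA) in replicates 1 and 2. It stood at 9.54 and 8.35 (HBSS) and 8.77 and 9.18 (BSA) in replicates 3 and 4, a difference of -3.76 ± 0.54 (SE) in which 3 of the 4 lower values were under the noise level. Msln, mesothelin of the same surface, named after its values were seen, stood at 6.36, 5.67, 6.42 and 6.87 against 8.46, 7.78, 7.55 and 8.34 (difference -1.70 ± 0.35 SE). Rspo1 (-1.56 ± 0.39 SE), a Wnt pathway enhancer, and Bnc1 (at least 1.12-fold), a zinc finger factor, were lower as well. MACA 12 h replicate 1 was low for Upk3b (4.01, against 9.50 and 9.16 on the other MACA 12 h arrays) and Msln (5.66, against 8.45 and 8.37) too. The same array was low for Rspo1 (5.21, against 7.43 and 7.04), Bnc1 (4.00, against 6.90 and 6.11) and Slurp1 (4.00, against 6.45 and 6.33). It was not low for Lrrc26 (8.22, against 8.11 and 7.73). How much of the lung surface each sample held was not tested.

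Ap2b1, a clathrin adaptor subunit, was at 7.36, 7.24, 8.07 and 8.48 against 9.64, 9.87, 9.80 and 9.71 (difference -1.97 ± 0.24 SE). Its other probe set, above the noise level on all 8 arrays, differed by -0.25. Ap2b1 also varied among the 3 h arrays, from 7.45 to 9.89, both in HBSS, and was 7.47 on MACA 12 h replicate 1 against 10.13 and 10.19 on the other MACA 12 h arrays.

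Markers of other cell types held few differing genes. Among 15 alveolar epithelial, 7 ciliated, 20 endothelial, 16 neutrophil, 17 T cell and NK cell, 12 B cell, 15 dendritic cell and 22 fibroblast and matrix markers, 0 differed. Neutrophil markers had a median of 0.52 and summed intensities of 5363 to 15554 against 4012 to 7912, and Elane and Trem1 were under the noise level on all 8 arrays. The neutrophil surface gene Cd177, outside the list and named after its values were seen, was higher (1.47 ± 0.46 SE, 0.64 in HBSS alone). Cd177 (8.75) and the list members S100a9 (11.77) and Lcn2 (12.78) were highest of the 8 arrays on BSA 12 h replicate 1. T cell and NK cell markers had a median of 0.39, beside -0.01 over all genes, with 13 of 17 above 0. At any size, 7 of the 17 lay apart in both agents as higher and 1 as lower. Over all 12393 genes, 754 did so as higher and 830 as lower. Among the Nrf2 list 10 of 15, and among the Atf4 list 11 of 18, lay apart as higher. Of 17 macrophage markers, 1 was higher, the lipopolysaccharide co-receptor gene Cd14 (1.22 ± 0.25 SE, 0.76 in HBSS alone). Of 20 heart and skeletal muscle markers, 1 was lower, the fast myosin gene Myh4 (-1.36 ± 0.24 SE, -0.95 in HBSS alone), and the atrial gene Myl7 differed by -0.43 ± 0.14 (SE). Cell cycle genes had a median of -0.33, beside -0.01 over all genes, with 20 of 22 below 0 and 0 differing. The part of cell content in the differing genes was not tested.

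**Figure D3:**
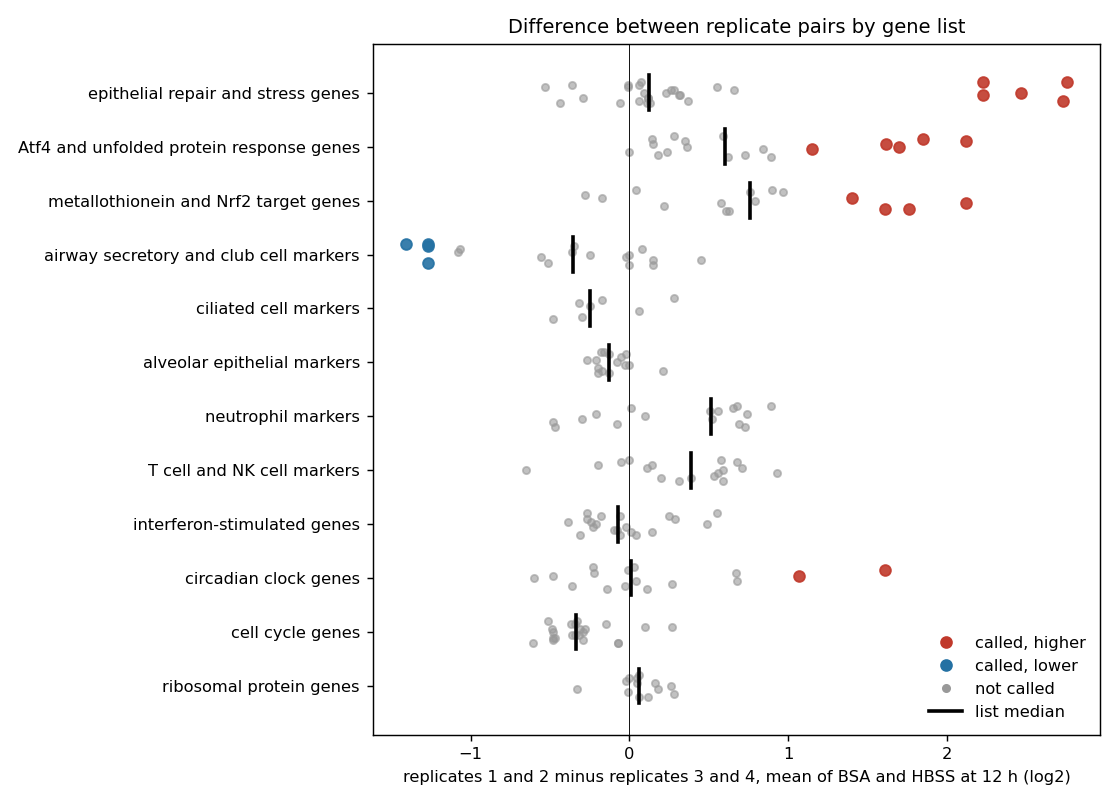
Log2 difference of replicates 1 and 2 from 3 and 4, averaged over BSA and HBSS at 12 h (horizontal axis), for each measured member of 12 gene lists (rows); red and blue points met the rule, grey points did not, and the black bar is the list median. The Nrf2 target list (median 0.76) and the Atf4 list (0.61) lie to the right, and the 4 lower airway markers to the left.

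BSA and HBSS were also compared with each other at 12 h. BSA against HBSS at 12 h, a comparison in which each side holds 2 arrays of each pair, gave 69 of 12393 genes higher (0.557%) and 98 lower (0.791%) by limma at an adjusted p under 0.05, and 2094 genes at an unadjusted p under 0.05. The 95 genes of the split were chosen for their spread within each agent, so this fit could hardly call them, and nothing is read from their results in it. Fosl1 was at 5.64 ± 1.40 (SD, n = 4) in BSA and 5.26 ± 1.24 in HBSS, with both states in each group.

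The genes that follow had the largest folds among those that passed in BSA against HBSS at 12 h. Ltb, a lymphotoxin of lymphocytes, was at 8.46 ± 0.33 (SD, n = 4) in BSA and 7.43 ± 0.19 in HBSS (limma log2 fold 1.02, adjusted p = 0.0172). Itgb7 (0.86), an integrin of mucosal lymphocytes, and Blk (0.92), a B cell kinase, also rose. Snrnp40 (-1.10), a splicing protein, Fli1 (-1.02), a factor of endothelial and blood cells, and Ap2a1 (-1.02), a clathrin adaptor subunit, fell. Gzmk and Krt83, among the 5 largest rises that passed, and Prm3 and Kif4, among the 5 largest falls that passed, had means under the noise level in both groups, so no fold is given. With the replicate number as a block in these 8 arrays 0 genes passed (2158 at an unadjusted p under 0.05), and with the replicate pair as a block 1 passed (Kif4). With all 21 arrays the replicate block gave 212, and the hybridization control ratio as a term gave 1502. These calls thus depend on the fit. Leaving out 1 array gave 4 (without HBSS 12 h replicate 2), 28 (HBSS replicate 3), 73 (HBSS replicate 4), 75 (BSA replicate 1), 55 (BSA replicate 3), 36 (BSA replicate 4) and 338 (BSA replicate 2) in place of 167.

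The 3 h lungs took no part in the split, and there Fosl1 differed between agents. At 3 h Fosl1 stood at 7.57, 8.11 and 7.93 after BSA and at 4.22, 4.00 and 4.00 after HBSS, at least 4.12-fold higher (limma adjusted p = 0.0209). The MACA 3 h arrays, at 7.63, 7.54, 7.63 and 7.99, overlapped those of BSA and not those of HBSS (at least 3.65-fold higher than HBSS, limma adjusted p = 0.00193). The levels of replicates 1 and 2 at 12 h, 6.31 to 6.83, lay between the 3 h agents, and those of replicates 3 and 4 lay beside 3 h HBSS.

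Over all genes, BSA against HBSS at 3 h gave 20 higher (0.161%) and 2 lower (0.0161%) by limma at an adjusted p under 0.05. Of the 53 higher genes, 2 rose, Fosl1 and Artn (at least 2.24-fold, limma adjusted p = 0.0131), a neurotrophic ligand of the Gdnf family. Of the 53, 51 lay above 0 with a median log2 fold of 0.96 (0.90 with genes at their bound), beside a median of -0.01 and 48% above 0 over all genes. By limma at an unadjusted p under 0.05, 27 of the 53 were higher, beside 5.28% of all genes. Of the 42 lower genes, 0 passed, and 12 were lower at an unadjusted p under 0.05, beside 5.32% of all genes. Of these 42, 38 lay below 0 with a median of -0.46, beside 51.8% below 0 over all genes. The spread in this fit comes from all 6 groups, the divided 12 h groups included (SE of Fosl1 0.66). With only the 6 arrays compared, the SE of Fosl1 was 0.16, 63 genes were higher (0.508%) and 14 lower (0.113%), and among them were 19 of the 53 and 5 of the 42.

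Ccl20 was at 8.53, 8.63 and 9.42 after BSA and 4.72, 4.98 and 4.00 after HBSS at 3 h. This was at least 8.16-fold apart without overlap, though it did not pass in the fit of all groups (limma adjusted p = 0.0795, and 0.0232 with the 6 arrays alone). Prss22 gave at least 10.8-fold (limma adjusted p = 0.0609, and 0.0158), Sfn at least 6.32-fold (0.116, and 0.0417) and Slc7a11 at least 3.31-fold (0.0926, and 0.00973). Cldn4 (log2 fold 2.50 ± 0.69 SE) passed in neither fit (limma adjusted p = 0.173, and 0.0605). The stress genes Nupr1 (2.35), Mthfd2 (2.03), Srxn1 (1.93), Trib3 (1.83), Psat1 (1.82) and Phgdh (1.68), given as log2 folds, passed only with the 6 arrays alone. In BSA against HBSS at 3 h the call of Fosl1 was lost without BSA 3 h replicate 2 or 3 or any HBSS 3 h array (limma adjusted p = 0.0772 to 0.124). The count of 22 genes became 7 to 9 without those arrays other than HBSS 3 h replicate 3, 37 without BSA 12 h replicate 1 and 48 without BSA 12 h replicate 3.

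MACA against HBSS at 3 h, which shares the HBSS arrays with the previous comparison, gave 599 genes higher (4.83%) and 409 lower (3.3%) by limma. Of the 53 higher genes, 19 rose and 50 lay above 0, with a median log2 fold of 1.14. Over all genes the median was -0.03 and 45.9% lay above 0. The 19 included by limma Ccl20 (at least 9.78-fold, adjusted p = 0.00463), Prss22 (at least 11-fold, adjusted p = 0.0041), Cldn4 (log2 fold 2.81 ± 0.64 SE, adjusted p = 0.0134), Slc7a5 (2.72 ± 0.63, adjusted p = 0.0145) and Myc (1.99 ± 0.41, adjusted p = 0.00643). Slfn4, Il1rn and Cd14, myeloid or inflammatory genes, also rose after MACA (2.78, 2.77 and 2.23), but after BSA Slfn4 stood at -0.02. Il1rn was at 7.14 ± 0.41 (SD, n = 3) after BSA and 6.65 ± 0.89 after HBSS at 3 h. Cd14 was at 11.15 ± 0.13 and 10.29 ± 1.07. Both means were higher after BSA, but the arrays overlapped and neither gene passed. Of the 42 lower genes, 3 fell by limma, the cholecystokinin receptor gene Cckar (-2.50 ± 0.45 SE, adjusted p = 0.00312), the calcium pump gene Atp2b2 (at least 2.44-fold lower) and the Myc relative Mycl, whose means were under the noise level in both groups, so that no fold is given.

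Several members did not clearly follow the agent at 3 h. Upk3b stood at 9.40 or above on all 3 h arrays but 1 BSA array (8.78), with a log2 fold of 0.00 ± 1.34 (SE) for MACA against HBSS. Sprr1a was at 5.17 to 5.94 after BSA and 4.73 to 5.52 after HBSS, with both means under the noise level. After MACA it was at 5.59, 5.72, 6.01 and 6.68, above every HBSS 3 h array. It did not pass there (at least 1.12-fold, limma adjusted p = 0.433). Nr1d1 differed by 0.16 ± 0.60 (SE) for BSA against HBSS. Scgb3a2 was at 12.64, 12.75 and 12.44 after BSA and at 12.90, 13.07 and 13.09 after HBSS, which did not overlap but did not pass (log2 fold -0.41 ± 0.43 SE, limma adjusted p = 0.795). Without MACA 3 h replicate 4 or HBSS 3 h replicate 1, 2 or 3, the 1008 calls of MACA against HBSS at 3 h became 519, 576, 645 and 481. The calls of Sfn, Slc7a5, Slc7a11, Srxn1, Slfn4 and Cd14 were lost without 1 or more single arrays.

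**Figure D4:**
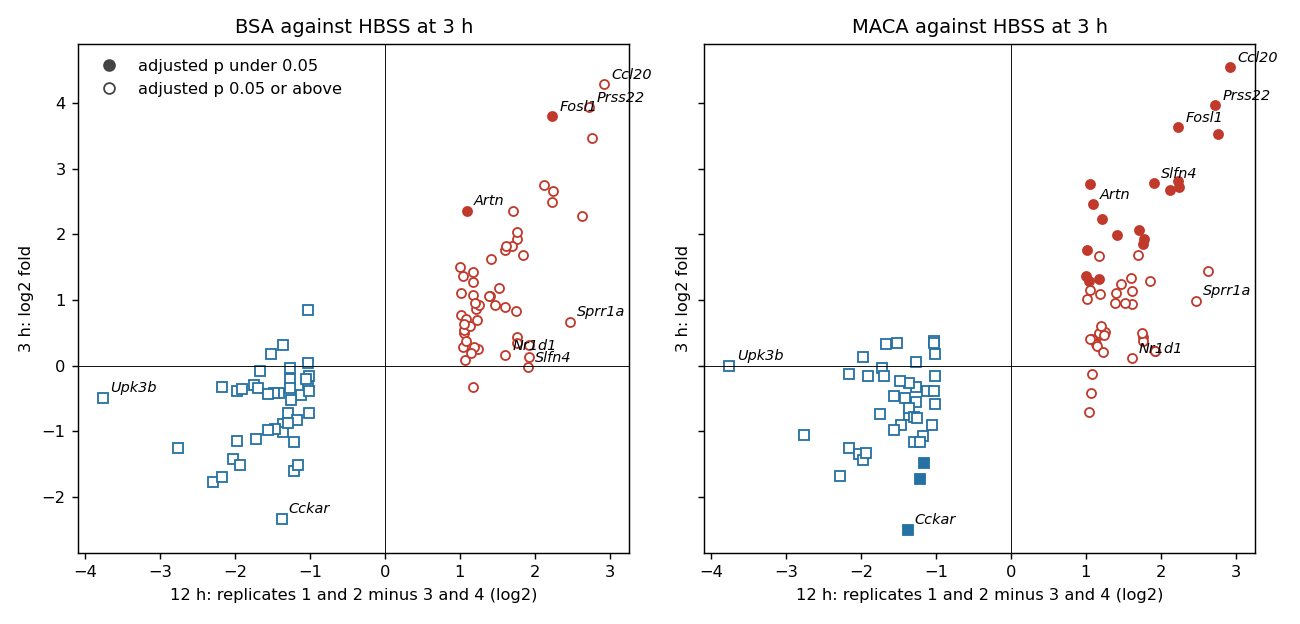
Log2 fold at 3 h (vertical) for BSA against HBSS (left) and MACA against HBSS (right) against the 12 h difference of replicates 1 and 2 from 3 and 4 (horizontal), for the 53 higher genes (red) and the 42 lower genes (blue); filled points passed limma's threshold. The higher genes lie above 0 at 3 h in 51 (BSA) and 50 (MACA) of 53 cases, beside 48% and 45.9% of all genes. Both panels share the HBSS 3 h arrays.

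Across all arrays, the mean level of the 53 genes was 7.97 to 8.29 in 12 h replicates 1 and 2 and 6.29 to 6.77 in replicates 3 and 4. The 3 h arrays ranged from 7.89 to 7.99 after BSA, from 7.92 to 8.15 after MACA and from 6.55 to 6.75 after HBSS. For the 42 genes the mean was 6.67 to 6.91 in replicates 1 and 2 and 8.27 to 8.47 in replicates 3 and 4, with 7.26 to 7.65 (BSA), 7.39 to 7.60 (MACA) and 7.96 to 8.32 (HBSS) at 3 h. For the lower genes the 3 h BSA and MACA arrays thus did not reach the level of 12 h replicates 1 and 2. The group mean lay nearer replicates 1 and 2 than 3 and 4 for 38 of the 53 genes after BSA at 3 h, 38 after MACA at 3 h and 7 after HBSS at 3 h. The same was so for 27, 27 and 7 of the 42 genes.

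MACA 12 h lungs lay with replicates 3 and 4 for the genes that define the split. Fosl1 was at 4.30, 4.67 and 4.44 there, Prss22 at 4.66, 5.02 and 4.74 and Cldn4 at 5.45, 5.89 and 5.08. Slc7a5 (6.86, 7.57 and 6.80) and Ccl20 (6.32, 6.83 and 7.47) lay between the pairs, and 22 of the 53 and 12 of the 42 genes lay nearer replicates 1 and 2. MACA 12 h replicate 1 had the lowest mean of the 42 genes in its group (7.39, against 8.21 and 8.27).

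**Figure D5:**
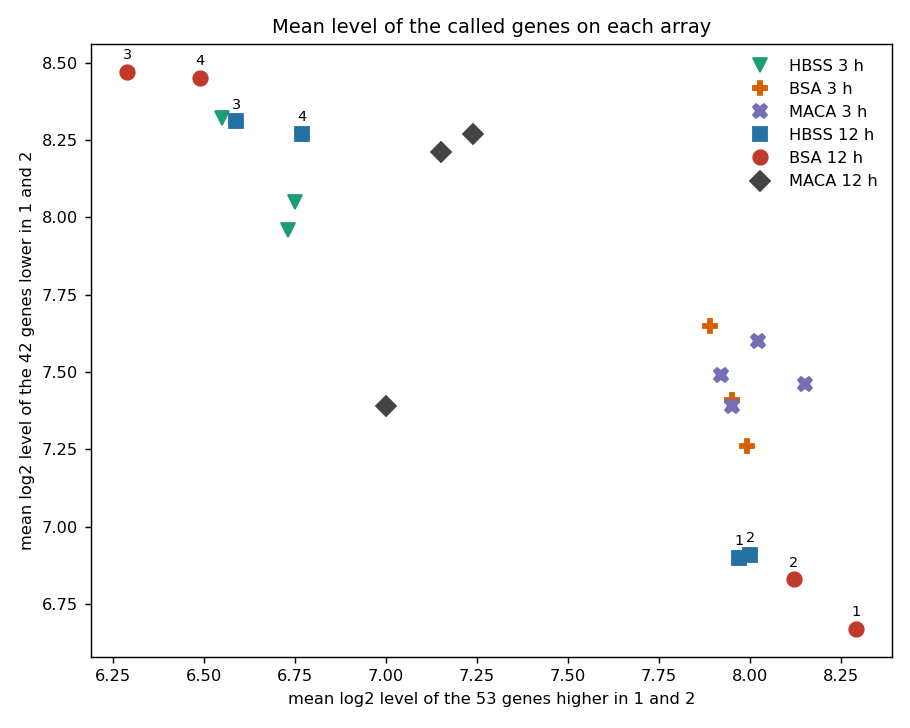
Mean log2 level of the 53 higher genes (horizontal) and of the 42 lower genes (vertical) on each of the 21 arrays; numbers beside the 12 h control arrays are replicate numbers. Replicates 1 and 2 of both agents lie at the lower right, replicates 3 and 4 at the upper left beside the HBSS 3 h arrays, and the BSA and MACA 3 h arrays lie between 7.89 and 8.15 on the horizontal axis.

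No gene passed a test of the replicate number in the other groups. In these 13 arrays, with the group as a term, 0 of 12393 genes (0%) differed between replicates 1 and 2 and replicates 3 and 4 by limma at an adjusted p under 0.05, and 1328 did at an unadjusted p under 0.05. The medians of the 53 and 42 genes were -0.06 and -0.07, beside -0.01 over all genes. Of the 53, 21 lay above 0, beside 45.4% over all genes. Fosl1 differed there by -0.06 ± 0.12 (SE). Replicate 4 is present in only 1 of these groups, MACA 3 h, where Fosl1 was at 7.63 and 7.54 in replicates 1 and 2 and at 7.63 and 7.99 in replicates 3 and 4. In MACA 3 h the hybridization control ratio was 1.8 and 1.86 in replicates 1 and 2 but 1.1 and 1.11 in replicates 3 and 4. Replicate number and ratio therefore cannot be told apart in that group.

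The genes with levels most like those of Fosl1 over the 21 arrays were Gadd45a and Prss22 (Pearson r 0.97 each), Lad1 and Mboat1 (0.96 each), Chac1 (0.94), Slc7a5, Nupr1 and Sfn (0.93 each), Cldn4 (0.92) and Trib3 (0.91), of 9353 genes above the noise level on at least 4 arrays. The arrays share their groups, so this ranks likeness only. Lad1, an anchoring filament protein, Mboat1, a phospholipid acyltransferase, and Chac1, a glutathione-degrading enzyme, were under 2-fold between the 12 h pairs (0.78, 0.54 and 0.84), and Gadd45a, a growth arrest gene, differed by 1.04 ± 0.16 (SE, 0.74 in HBSS alone).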

How the data were processed

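Total RNA of whole left lung was labelled as biotinylated cRNA and hybridised, per the labels' protocols. The authors deposited 1 linear intensity for each of 22690 probe sets and array, with 9.38% to 11.2% of an array's values below 0. Which scanner software, summary and scaling made them was not given in the sources used here. How precise a value is depends on the number of arrays, since an array gives no counting depth.

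Because array medians differed, intensities were quantile normalized between arrays without the 64 control probe sets, set to at least 0 and taken as log2(intensity + 16), a scale that understates changes of dim genes. The noise level, intensity 40.9, is the 95th percentile of the sizes of values below 0. Of 22626 other probe sets, 20380 had 1 gene symbol, 691 several and 1555 none, and 20351 matched the gene table. The brightest probe set per gene left 12393 genes. Where every array of a side was under the noise level, the difference is a lower bound, "at least N-fold", from the brighter side's mean and the noise level or the dim side's own value, whichever was higher.

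The members, the gene lists and the split were chosen with earlier results of these data known. Differences across the split come from a fit of agent and replicate pair, without a test. Other comparisons used limma 3.58.1 in R 4.3.3 on 6 group means over 21 arrays (15 residual degrees of freedom), with Benjamini-Hochberg adjusted p under 0.05 over all genes. Named genes are Fosl1, Prss22 and Cldn4, the 12 largest differences in each direction, up to 4 differing and 2 bright other members of each list, and the 5 highest and lowest folds of BSA against HBSS at 12 h among genes that passed. Genes named beyond this rule, such as Artn, Nupr1, Mthfd2, Cckar, Atp2b2 and Mycl, were chosen after their values were seen. Same-numbered BSA and HBSS arrays at 12 h deviated together (correlations 0.14, 0.34, 0.17 and 0.21). Replicates of different numbers in the same pair also correlated (0.09 to 0.23), as the split itself would give. These values therefore do not show that single numbers pair the arrays. The fit with the number as a block is printed beside the main fit, which has none. The fits were tested on simulated data. Alternatives were no or median scaling, other offsets, the mean of all probe sets, a 1.5-fold rule, blocks, fewer groups and leaving out each array. Figures were drawn with matplotlib 3.10.9.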

Additional observations from a re-analysis of the deposited data

Results flagged for a closer look

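Groups of 4 arrays were searched by Dixon's 95% criterion for 1 array apart from the other 3. This held for 3 of 132 combinations of 44 named genes and 3 groups. All 3 were among the 44 combinations of MACA 3 h, which took no part in the choice of genes. The genes were chosen because replicate pairs lay apart within the BSA and the HBSS group, which leaves little room there for 1 outlying array. Chance gives about 1 in 20, but the share of 132 therefore cannot be set against it. Afp was 7.19 on MACA 3 h replicate 3 and 7.37 to 7.40 on the other 3. Slurp1 was 5.98 on MACA 3 h replicate 4 and 6.86 to 7.04 on the other 3. Gabrp was 8.62 on MACA 3 h replicate 1 and 9.22 to 9.33 on the other 3.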

How the results depend on the processing

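For control lungs at 12 h, replicates 1 and 2 against 3 and 4, 95 genes differed. The count was 100 for HBSS lungs at 12 h, replicates 1 and 2 against 3 and 4, and 232 for BSA lungs at 12 h, replicates 1 and 2 against 3 and 4. The joint count was 162 (BSA alone 1370) with no scaling, 50 (HBSS 41, BSA 108) with an offset of 64, and 312 (HBSS 350, BSA 1034) at 1.5-fold in place of 2-fold. An offset of 1 gave 365 in BSA alone. Leaving out 1 array gave 96 to 105 jointly, 124 to 138 in HBSS alone and 247 to 423 in BSA alone, where a side with fewer arrays is more easily apart. The 44 named genes that met the rule kept their sign in all 658 values under alternatives, and 106 of these moved by over 1 SD. They were chosen for a difference of at least 2-fold without overlap, so a change of sign was unlikely by construction. By limma, BSA against HBSS at 12 h (167 genes) gave 2057 with no scaling, 63 with median scaling, 55 with the mean of all probe sets, 3 with only the arrays of the 2 groups, 0 with the replicate block in those arrays, 1 with the replicate pair as a block, 1502 with the control ratio as a term, and 4 to 338 without 1 array. MACA against HBSS at 3 h (1008) gave 140 with no scaling, 532 with only its arrays, 0 with the replicate block in those arrays, and 481 to 1179 without 1 array. BSA against HBSS at 3 h (22) gave 0 with no scaling, 77 with only its arrays, 1 with the replicate block in those arrays, and 7 to 48 without 1 array. At 3 h same-numbered arrays correlated at 0.00 to 0.15, so they share only a number, and with the block in all 21 arrays the counts were 984 and 32. The replicate number in the other 13 arrays gave 0 in every alternative run. Where the cause of a change in count is not part of the alternative's construction, it was not tested. Signal limits Fosl1, Bcat1, Angptl6 and others: 13 of the 53 higher and 12 of the 42 lower genes had a side wholly under the noise level.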
